A study of Caenorhabditis elegans with 6 samples.

Results

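The 6 vitellogenin genes of *C. elegans*, *vit-1* to *vit-6*, encode the yolk proteins of the adult hermaphrodite. They were taken from the deposited count tables by gene name, and all 6 were found among 46904 genes and passed the filter on low counts that left 14899 genes for testing. RNA was measured in 6 libraries of whole wild-type Bristol N2 hermaphrodites. Every group began feeding at 3 days of age, as young adults, and was fed for 5 days, and about 200 worms were collected per group. The 3 groups, with 2 libraries each, were fed *Escherichia coli* OP50 alone, a mixture of OP50 and *Lactococcus lactis* strain LL100933, which does not make the antimicrobial peptide nisin, or a mixture of OP50 and the nisin-producing strain LL12007. The sources spell the number of the first strain in 3 ways, of which the name in the paper was kept. Whether libraries of one group stem from different cultures is not stated, and the p-values may therefore reflect technical spread alone. Total gene counts ranged from 14929196 to 21691687 per library.

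Vitellogenins are large lipid-carrying proteins related to the apolipoprotein B of vertebrates. In the worm they are made in the adult hermaphrodite intestine, secreted into the body cavity and taken up by growing oocytes through the receptor RME-2, so that they carry lipid from the mother to the embryo. *vit-2* and *vit-1* belong to one pair of closely related genes, *vit-3*, *vit-4* and *vit-5* form a second set of near copies, and *vit-6* encodes the most distant protein, a precursor that is cleaved after secretion.

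On the ce11 (WBcel235) assembly, as the count tables give it, 5 of the 6 genes lay on chromosome X and 1 on chromosome IV. *vit-1* (WBGene00006925) ran from 7727889 to 7733168 on the forward strand of X in 5 exons, and *vit-2* (WBGene00006926) from 5101032 to 5106173 on the same strand, also in 5 exons. *vit-3* (WBGene00006927, 3567355 to 3572549) and *vit-4* (WBGene00006928, 3558839 to 3563974) lay side by side on the reverse strand of X, each in 6 exons, with 3380 bases and no other annotated gene between them. *vit-5* (WBGene00006929) ran from 3403471 to 3408603 on the forward strand of X in 6 exons and ended 150.2 kb before the start of *vit-4*. *vit-6* (WBGene00006930) ran from 8261134 to 8266462 on the forward strand of chromosome IV in 5 exons.

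The genes were alike in size. Their merged exons covered between 4870 bases (*vit-5*) and 5090 bases (*vit-6*), and the coding sequences of the later Ensembl annotation of the same assembly encoded 1603 residues for each of *vit-3*, *vit-4* and *vit-5*, 1616 for *vit-1*, 1613 for *vit-2* and 1651 for *vit-6*. An antisense gene overlapped *vit-3*, *vit-4* and *vit-6*, and none of these antisense genes had more than 3 counts in any library. The treatment of reads that match near-identical copies is not given in the sources used here, which leaves the division of reads between *vit-1* and *vit-2*, and among *vit-3*, *vit-4* and *vit-5*, uncertain.

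Vitellogenin transcripts were among the most abundant RNAs of these worms. By counts, *vit-6* ranked first and *vit-2* second of all genes in every library, and *vit-5* had rank 3 in 5 libraries and rank 4 in the remaining one. Values per kilobase of exon account for gene length, but not for the uncertain division of reads between near copies. By this measure *vit-6* was at 4296 to 7309 CPM per kb (counts scaled to library size, per kilobase) and *vit-2* at 3444 to 6987. *vit-5* followed at 1407 to 2811 CPM per kb. The other 3 genes were much lower as counted, with *vit-3* between 236 and 448 CPM per kb, *vit-4* between 183 and 426 and *vit-1* between 49.9 and 202.

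The order of the levels was nearly the same in all libraries. *vit-6* exceeded *vit-2* per kilobase in 6 of 6 libraries, although by only 1.02 to 1.25 times. *vit-2* exceeded *vit-5* by 2.10 to 2.90 times and *vit-5* exceeded *vit-3* by 4.85 to 8.97 times, in 6 of 6 libraries each. *vit-3* and *vit-4* were neighbours that could not be ordered, since *vit-3* was higher in 4 of 6 libraries and the ratio ran from 0.994 to 1.57. *vit-4* exceeded *vit-1* in 6 of 6 libraries, by 2.11 to 3.66 times. These ratios rest on reads as counted, and an order that holds in all libraries does not check how shared reads were divided.

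**Figure D1:**
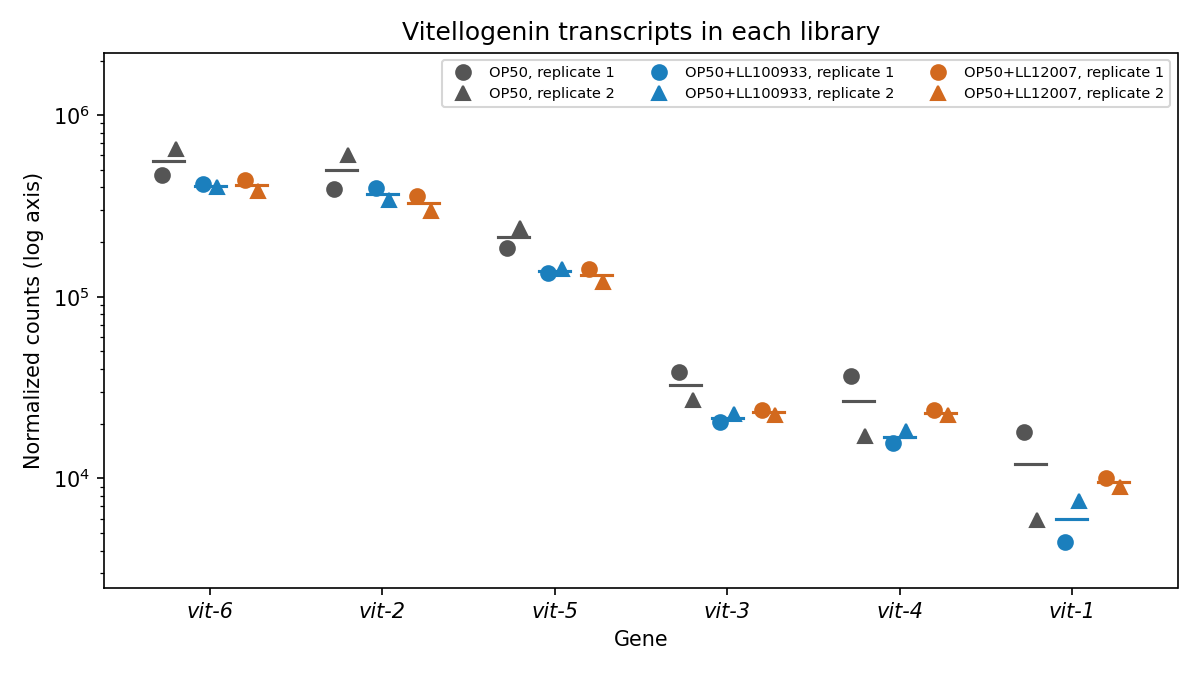
Normalized counts (scaled to a common library size, log axis) of each vitellogenin gene in each library, with circles for replicate 1, triangles for replicate 2 and a short line at the mean of each group. For *vit-5* and *vit-3* both OP50 libraries lie above all 4 *Lactococcus*-fed libraries, whereas for *vit-1* and *vit-4* the OP50 libraries lie far apart, at 18004 and 5890 for *vit-1*.

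The first question was how much of the RNA pool these 6 genes took on each diet. They held 6.31% (exact 95% binomial interval 6.30 to 6.32) and 8.85% (8.84 to 8.87) of all gene counts in the OP50 libraries. The share was 5.52% (5.51 to 5.53) and 5.51% (5.50 to 5.52) with OP50 + LL100933, and 5.65% (5.64 to 5.66) and 4.97% (4.96 to 4.98) with OP50 + LL12007. Both OP50 libraries thus lay above the 4 *Lactococcus*-fed libraries. The group means were 7.58% ± 1.80 (SD, n = 2) for OP50, 5.52% ± 0.0047 (SD, n = 2) for OP50 + LL100933 and 5.31% ± 0.483 (SD, n = 2) for OP50 + LL12007. The intervals cover counting error only, and the gap between the 2 OP50 libraries was larger than the gap between the lower of them and any *Lactococcus*-fed library. With 2 libraries against 2, an exact two-sided permutation test cannot give a p below 0.333, so the share was not tested. In RNA of whole worms, a smaller amount of intestine and less yolk RNA per intestinal cell cannot be told apart.

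**Figure D2:**
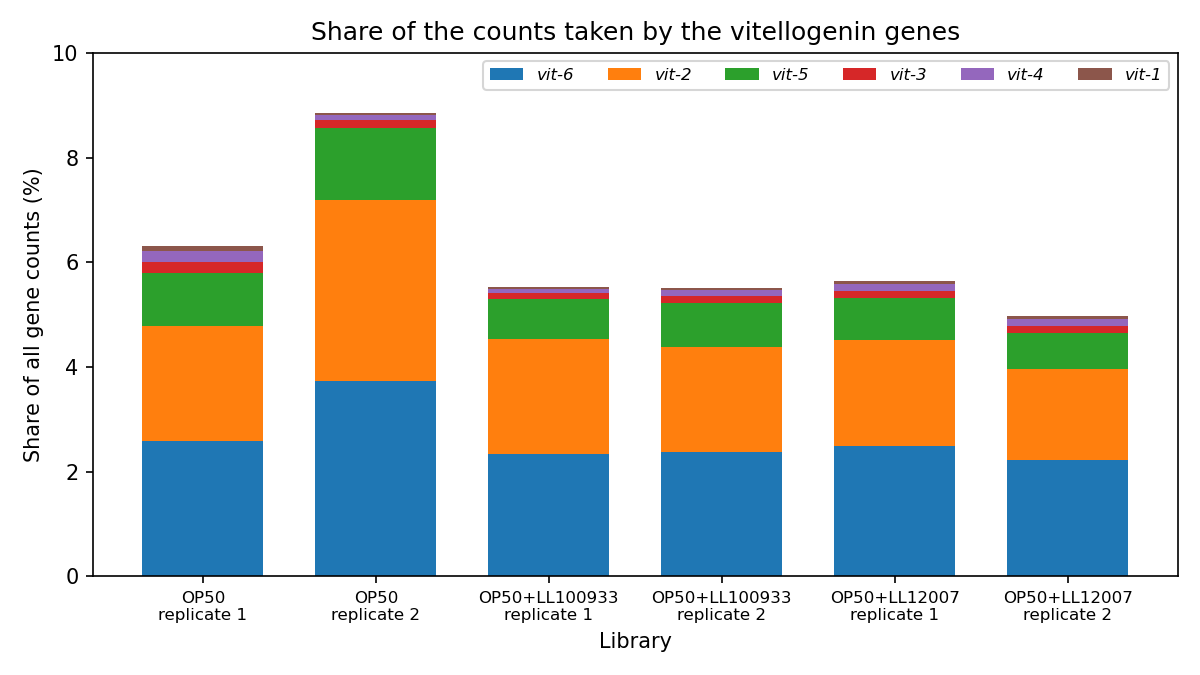
Share of all gene counts (%, stacked bars from 0) taken by each vitellogenin gene in each library. *vit-6*, *vit-2* and *vit-5* make up nearly the whole bar, which is highest in OP50 replicate 2 at 8.85% and lowest in OP50 + LL12007 replicate 2 at 4.97%.

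Each diet was then set against OP50, gene by gene. *vit-2*, one of the most highly expressed members, had 393973 and 605228 normalized counts in the OP50 libraries, 396460 and 339484 with OP50 + LL100933, and 357308 and 298288 with OP50 + LL12007. The second OP50 library stood above the other 5, and OP50 overlapped with OP50 + LL100933 but not with OP50 + LL12007. The log2 fold change was -0.44 (SE 0.27, adjusted p = 0.285 by edgeR's quasi-likelihood test) with OP50 + LL100933 and -0.61 (SE 0.27, adjusted p = 0.135 by edgeR) with OP50 + LL12007.

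Its close relative *vit-1*, the lowest of the family by counts, behaved differently within the controls. It had 18004 and 5890 normalized counts with OP50, 4446 and 7487 with OP50 + LL100933, and 10041 and 8941 with OP50 + LL12007. Here the first OP50 library was the highest of all 6 and the second was the second lowest, so OP50 overlapped with both mixed diets. The log2 fold change was -1.0 (SE 0.59, adjusted p = 0.306 by edgeR) with OP50 + LL100933 and -0.33 (SE 0.58, adjusted p = 0.704 by edgeR) with OP50 + LL12007. The 95% intervals, -2.54 to 0.53 and -1.85 to 1.19, were the widest of the family.

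*vit-5*, the highest by counts of its set of near copies, had 184982 and 239636 normalized counts with OP50, 134700 and 141358 with OP50 + LL100933, and 142788 and 119973 with OP50 + LL12007. All 4 *Lactococcus*-fed libraries were below both OP50 libraries. Its log2 fold change was -0.62 (SE 0.22, adjusted p = 0.0941 by edgeR) with OP50 + LL100933. With OP50 + LL12007 it was -0.69 (SE 0.22, adjusted p = 0.0561 by edgeR), the smallest adjusted p of any vitellogenin gene.

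*vit-3* had 38596 and 27002 normalized counts with OP50, 20336 and 22605 with OP50 + LL100933, and 23908 and 22338 with OP50 + LL12007. As for *vit-5*, both mixed diets lay wholly below OP50. The log2 fold change was -0.61 (SE 0.19, adjusted p = 0.0759 by edgeR) with OP50 + LL100933 and -0.50 (SE 0.19, adjusted p = 0.0944 by edgeR) with OP50 + LL12007.

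Its neighbour on the chromosome, *vit-4*, had 36363 and 17054 normalized counts with OP50, 15608 and 18122 with OP50 + LL100933, and 23802 and 22232 with OP50 + LL12007. The first OP50 library was above the other 5, and the second lay within or below the mixed diets. The log2 fold change was -0.66 (SE 0.32, adjusted p = 0.201 by edgeR) with OP50 + LL100933 and -0.21 (SE 0.32, adjusted p = 0.647 by edgeR) with OP50 + LL12007.

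*vit-6*, on chromosome IV, had 467888 and 651242 normalized counts with OP50, 417524 and 400819 with OP50 + LL100933, and 438606 and 382776 with OP50 + LL12007. Both mixed diets lay below both OP50 libraries, although the gap between the OP50 libraries was larger than that between the diets. The log2 fold change was -0.45 (SE 0.25, adjusted p = 0.241 by edgeR) with OP50 + LL100933 and -0.45 (SE 0.25, adjusted p = 0.219 by edgeR) with OP50 + LL12007.

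Across the family, the fold changes of all 6 genes were below 0 with both mixed diets, and none passed the threshold of 0.05. With OP50 + LL100933, 0 of 6 were called lower by edgeR, where 2.24% of all tested genes were. An unadjusted p under 0.05 was found for 2 (*vit-3* and *vit-5*), and for 4686 of all 14899 tested genes in either direction. DESeq2 on the same libraries called *vit-3* (adjusted p = 0.00726) and *vit-5* (adjusted p = 0.00438) lower, against 4.94% of the genes it tested, and limma-voom called 0. With OP50 + LL12007, 0 of 6 were called lower by edgeR, where 7.71% of all tested genes were. An unadjusted p under 0.05 was found for 3 (*vit-2*, *vit-3* and *vit-5*), and for 5502 of all 14899 tested genes in either direction. DESeq2 called *vit-2*, *vit-3*, *vit-5* and *vit-6* lower there, with adjusted p between 0.000764 and 0.0417, against 10.1% of the genes it tested, and limma-voom called *vit-5* alone.

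The median log2 fold change of the 6 genes was -0.62 with OP50 + LL100933 and -0.48 with OP50 + LL12007. That of all tested genes was 0.02 in both comparisons. The libraries of OP50 + LL100933 lay wholly below OP50 for 3 of the 6 genes (*vit-3*, *vit-5* and *vit-6*), as they did for 29.9% of all tested genes. The libraries of OP50 + LL12007 did so for 4 of the 6 (the same 3 and *vit-2*), as they did for 33.9% of all tested genes. The comparisons share the 2 OP50 libraries, so the likeness of the values for both diets is not a second observation.

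**Figure D3:**
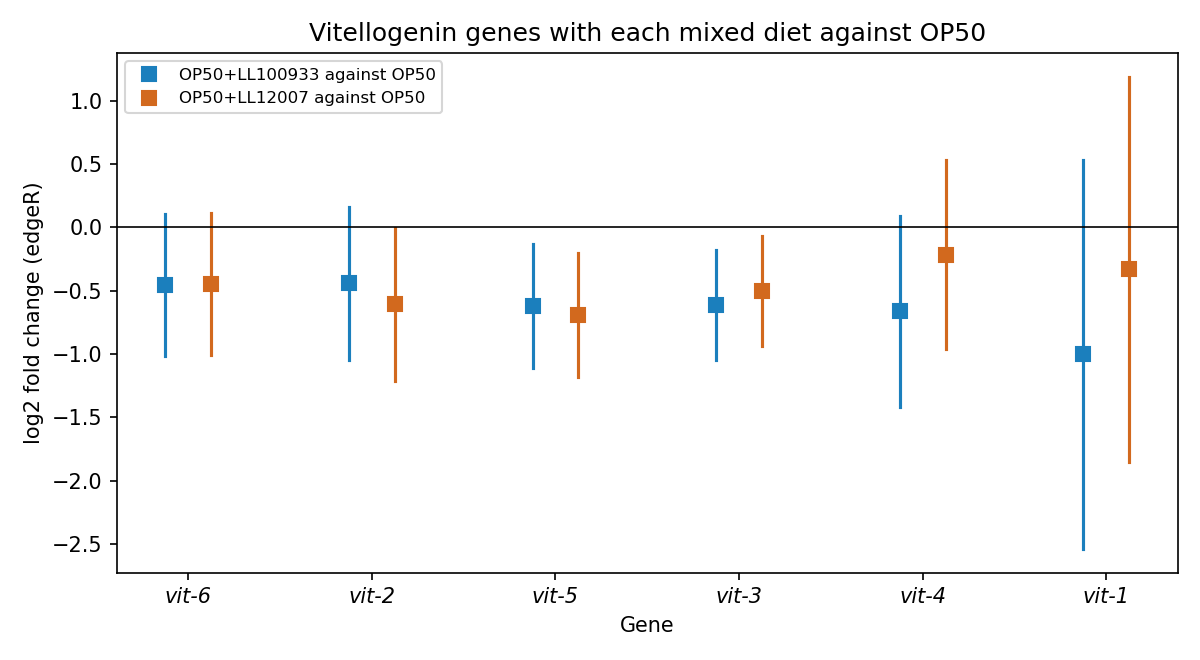
Log2 fold change of each vitellogenin gene with OP50 + LL100933 (blue) and OP50 + LL12007 (orange) against OP50, from edgeR, with vertical lines for the 95% interval. All 12 points lie below 0, the intervals of *vit-5* and *vit-3* lie below 0 with both diets, and those of *vit-1* reach from -2.54 to 1.19.

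The OP50 libraries themselves split the family into subsets, which were formed after the values had been seen. From OP50 replicate 1 to OP50 replicate 2, *vit-2*, *vit-6* and *vit-5* differed by 0.62, 0.48 and 0.37 on the log2 CPM scale. *vit-1*, *vit-4* and *vit-3* differed in the other direction, by -1.61, -1.09 and -0.52. Between the same libraries the 5th and 95th percentiles of all tested genes were -1.04 and 0.67, with a median of -0.01. The values of *vit-1* and *vit-4* were therefore below the 5th percentile. Of tested genes, 1.72% had a difference at least as negative as *vit-1* and 4.6% at least as negative as *vit-4*. The 2 libraries of OP50 + LL12007 were closer, with all 6 genes lower in the second by 0.10 to 0.26 in size. Those of OP50 + LL100933 differed by at most 0.22 in size, with the exception of *vit-1* at 0.75.

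The balance between the near copies moved with these libraries. *vit-1* had 4.57 and 0.973 counts per 100 counts of *vit-2* in the OP50 libraries, 1.12 and 2.21 with OP50 + LL100933, and 2.81 and 3.0 with OP50 + LL12007. The 2 OP50 libraries held both the highest and the lowest value. *vit-4* had 19.7 and 7.12 counts per 100 counts of *vit-5* with OP50, 11.6 and 12.8 with OP50 + LL100933, and 16.7 and 18.5 with OP50 + LL12007, which again left OP50 at both ends. *vit-3* ran from 11.3 to 20.9 counts per 100 of *vit-5*, with the OP50 libraries at both ends as well. Taken over the family, *vit-1*, *vit-3* and *vit-4* made up 8.16% and 3.23% of the vitellogenin counts with OP50, and between 4.08% and 6.26% in the 4 other libraries.

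The ratio of *vit-6* to the sum of the 5 X-linked genes was steadier. It was 0.696 and 0.728 with OP50, 0.731 and 0.758 with OP50 + LL100933, and 0.786 and 0.811 with OP50 + LL12007. The 3 groups did not overlap, with OP50 lowest and OP50 + LL12007 highest. This ratio is given as a description, since 2 libraries against 2 allow no p under 0.333 in an exact permutation test.

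Over the 6 libraries, log2 CPM of *vit-2* and *vit-6* had a Pearson correlation of 0.96 and that of *vit-5* and *vit-6* one of 0.96. *vit-1* and *vit-4* had a correlation of 0.98, and *vit-1* and *vit-2* one of -0.30. These values describe 6 points that share libraries and scaling factors, and the contrast of the 2 OP50 libraries weighs heavily in them.

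Because of this split, both diets were compared with each OP50 library alone, where the lone library is assumed to vary like the *Lactococcus* groups. The subsets were formed from the difference between these libraries, so the subset that lies lower in each fit was fixed in advance. With 1 library left in the OP50 group, only fold changes are given. Without OP50 replicate 1, *vit-2* was at -0.72, *vit-5* at -0.80 and *vit-6* at -0.67 with OP50 + LL100933. The values of *vit-1* and *vit-4* were then 0.02 and -0.02. With OP50 + LL12007 the same comparison put *vit-2* at -0.89, *vit-5* at -0.87 and *vit-6* at -0.67. *vit-4* and *vit-1* were above 0 there, at 0.43 and 0.69.

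Without OP50 replicate 2 the other subset was called. With OP50 + LL100933 edgeR called *vit-1* (-1.57, adjusted p = 0.00919), *vit-3* (-0.82, adjusted p = 0.00609) and *vit-4* (-1.08, adjusted p = 0.00162) lower, where 1.27% of tested genes were. With OP50 + LL12007 it called *vit-3* (-0.73, adjusted p = 0.0160) and *vit-4* (-0.65, adjusted p = 0.0256) lower, where 3.15% of tested genes were. *vit-2* and *vit-6* were then at -0.08 and -0.17 with OP50 + LL100933 and at -0.25 and -0.18 with OP50 + LL12007. Which genes lay furthest below 0 thus changed with the OP50 library used. *vit-5* and *vit-3* kept fold changes below 0 against either library, at -0.40 or lower for *vit-5* and at -0.22 or lower for *vit-3*, and so did *vit-2* and *vit-6*. When any *Lactococcus*-fed library was left out, the fold changes of all 6 genes stayed below 0 in both comparisons. The lack of vitellogenin calls in these fits is not read as a result, since each leaves 1 library in a group.

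**Figure D4:**
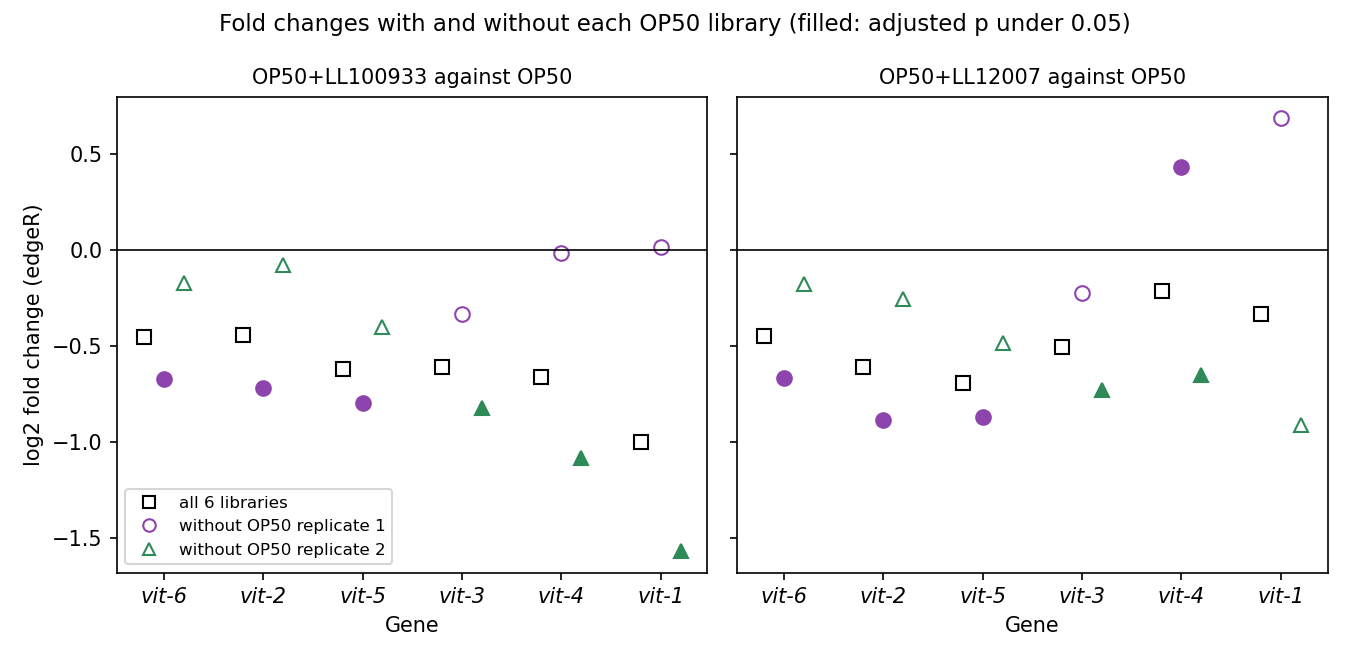
Log2 fold changes of the vitellogenin genes against OP50 with all 6 libraries (squares), without OP50 replicate 1 (circles) and without OP50 replicate 2 (triangles), for OP50 + LL100933 (left) and OP50 + LL12007 (right). Filled symbols have an edgeR adjusted p under 0.05. The filling of circles and triangles is not read as a result, since those fits leave 1 OP50 library. With both diets the circles lie below the triangles for *vit-6*, *vit-2* and *vit-5*, and above them for *vit-3*, *vit-4* and *vit-1*. The circle of *vit-4* lies at 0.43 with OP50 + LL12007.

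The *Lactococcus* strains were also compared with each other, which does not use the OP50 libraries except for the estimate of the spread. For OP50 + LL12007 against OP50 + LL100933, edgeR called 0 of the 6 genes and 0% of all tested genes. Fitted on this pair of groups alone, without the OP50 libraries, edgeR called 1.18% of the genes tested lower and 1.61% higher. No vitellogenin gene had an unadjusted p under 0.05, where 1530 of all 14899 tested genes had one. DESeq2 and limma-voom on all 6 libraries called 0 vitellogenin genes. *vit-1* and *vit-4* were higher in both LL12007-fed libraries than in both LL100933-fed ones, as were 24.6% of all tested genes. Their log2 fold changes were 0.67 (95% interval -0.86 to 2.20) and 0.45 (-0.30 to 1.20). The values of *vit-2*, *vit-3*, *vit-5* and *vit-6* were -0.17, 0.11, -0.07 and 0.01. Their intervals still allowed differences of up to 0.77 in size for *vit-2* and 0.56 for *vit-6*.

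Genes that act upstream and downstream of yolk production were examined in fixed lists. Of 15 genes for uptake of yolk by oocytes, edgeR called 1 lower and 1 higher with OP50 + LL12007. The yolk receptor gene *rme-2*, expressed in oocytes, had 675 and 740.1 CPM with OP50, 543 and 447 with OP50 + LL100933, and 475 and 390.2 with OP50 + LL12007. All 4 *Lactococcus*-fed libraries were below OP50. Its log2 fold change was -0.71 (SE 0.16, adjusted p = 0.0248 by edgeR) with OP50 + LL12007 and -0.52 (SE 0.16, adjusted p = 0.0708 by edgeR) with OP50 + LL100933. *dyn-1*, which encodes the dynamin that pinches off endocytic vesicles, rose by 0.45 (SE 0.10, adjusted p = 0.0250 by edgeR) with OP50 + LL12007, where 8.76% of all tested genes were called higher. With OP50 + LL100933, 0 of the 15 were called by edgeR and limma-voom. DESeq2 called 1 lower, as it did 4.94% of the genes it tested. An unadjusted p under 0.05 was found there for 3 of the 15, and for 4686 of all 14899 tested genes. *chc-1*, the clathrin heavy chain gene and the next most abundant of the list, was at -0.10 (SE 0.12) there. The median of the list was -0.07 with OP50 + LL100933 and -0.03 with OP50 + LL12007.

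Among 9 genes for lipoprotein assembly, secretion and yolk processing, *dsc-4*, which encodes the large subunit of the microsomal triglyceride transfer protein that loads lipid onto vitellogenin, was the only one called by edgeR. It had 81.8 and 53.9 CPM with OP50, 66.7 and 72.6 with OP50 + LL100933, and 111 and 118 with OP50 + LL12007. Both LL12007-fed libraries were above the other 4. The log2 fold change with OP50 + LL12007 was 0.76 (SE 0.18, adjusted p = 0.0294 by edgeR), and it was 0.50 and 1.09 against the first and the second OP50 library alone. Of the 9 genes, 8 were above 0 with OP50 + LL12007 (median 0.28). DESeq2 called 2 higher and limma-voom 1, as they did 11.8% and 8.75% of the genes they tested. An unadjusted p under 0.05 was found for 4 of the 9, all higher, and for 5502 of all 14899 tested genes in either direction. With OP50 + LL100933, where the median was -0.05, edgeR, DESeq2 and limma-voom called 0 of the 9. None had an unadjusted p under 0.05 in that comparison, where 4686 of all 14899 tested genes had one. *dsc-4* was at 0.04 there, the protein disulfide isomerase gene *pdi-2* at -0.03 (SE 0.18) and the cathepsin L gene *cpl-1* at 0.00 (SE 0.15). When either LL12007-fed library was left out, *rme-2* lay between -0.86 and -0.56, *dyn-1* between 0.46 and 0.47 and *dsc-4* between 0.73 and 0.80. These fits leave 1 library in that group, so the loss of the calls in them is not read as a result about these genes. The call of *dsc-4* was also lost without either LL100933-fed library.

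None of 13 genes for transcription factors and signalling proteins that are known to act on vitellogenin expression was called with either diet by edgeR, DESeq2 or limma-voom. An unadjusted p under 0.05 was found for 2 of them (1 lower, 1 higher) with OP50 + LL100933 and for 3 (1 lower, 2 higher) with OP50 + LL12007. Of all 14899 tested genes, 4686 and 5502 had one. The lower gene was *rict-1* with both diets, at -0.29 and -0.38 (adjusted p = 0.123 and 0.0521 by edgeR). Without a filter on low counts, edgeR called 1 of the 13 lower and 1 higher with OP50 + LL12007, as 7.51% and 10.8% of all genes tested. With at least 10 counts in every library it called 1 lower there, as 8.85% of all genes tested. The most abundant were *let-363*, the worm's TOR kinase gene, with log2 fold changes of -0.12 (SE 0.12) and 0.06 (SE 0.12), and the insulin receptor gene *daf-2*, with 0.04 (SE 0.15) and -0.15 (SE 0.15), LL100933 first. Without OP50 replicate 1, 1 of the 13 was called lower and 1 higher with each diet, where 6.78% (LL100933) and 12.4% (LL12007) of all tested genes were called lower, and 11% and 17.1% higher.

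Markers of the intestine, the tissue that makes yolk, were not lower on the mixed diets. Of 12 markers, of which *elt-2* and *elt-7* are also among the regulators, 0 were called lower with either diet, and the median was 0.14 with OP50 + LL100933 and 0.26 with OP50 + LL12007. The intermediate filament gene *ifb-2* rose with OP50 + LL100933 by 0.59 (SE 0.15, adjusted p = 0.0469 by edgeR), where 4.38% of all tested genes were called higher. Leaving out any *Lactococcus*-fed library ended this call. Such fits leave 1 library in a group, so this is not read as a result about *ifb-2*. With OP50 + LL12007 edgeR called 0 of the 12. DESeq2 called 3 and limma-voom 1, all higher, as were 11.8% and 8.75% of the genes they tested. An unadjusted p under 0.05 was found for 3 of the 12, all higher, and for 5502 of all 14899 tested genes in either direction. Without OP50 replicate 1, the median of the 12 was 0.48 with the LL100933 mixture and 0.52 with the LL12007 mixture. Without OP50 replicate 2 it was 0.04 and 0.16, with 6 and 2 of the 12 below 0. Both fits leave 1 OP50 library, so only the values are given. The most abundant, the aspartic protease gene *asp-1* and the intestinal actin gene *act-5*, were at 0.01 (SE 0.17) and 0.00 (SE 0.32) with OP50 + LL100933, and at 0.13 (SE 0.17) and 0.68 (SE 0.32) with OP50 + LL12007, where neither was called. The summed level of the 12 markers was 5396 and 4316 CPM with OP50, 5147 and 5344 with OP50 + LL100933, and 5726 and 5891 with OP50 + LL12007, with no marker at 0. OP50 replicate 2 was thus the lowest in intestine markers while it was the highest in *vit-2*, *vit-5* and *vit-6*.

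Markers of the oocytes, which receive the yolk, and of the germline were lower. Of all tested genes, edgeR called 2.24% lower on the LL100933 mixture and 7.71% on the LL12007 mixture. Of 12 oocyte markers, which include *rme-2*, 1 was called lower with OP50 + LL100933 (*egg-3*, -0.52) and 11 with OP50 + LL12007. Among the 11 were *rme-2*, *egg-3* (-0.65), and the oocyte surface protein genes *egg-1* (-0.67) and *egg-2* (-0.66). Of 10 germline markers, all 10 were below 0 with OP50 + LL100933 (median -0.45). Called lower there were 3, namely *glh-4* (-0.61), *pgl-1* (-0.52) and *rec-8* (-0.44). All 10 were called lower with OP50 + LL12007. Among them were the P granule genes *pgl-3* (-0.78) and *pgl-1* (-0.72), the Notch receptor gene *glp-1* (-0.68) and *glh-4* (-0.66). The summed level of the oocyte markers was 6257 and 6749 CPM with OP50, 5208 and 4471 with OP50 + LL100933, and 4563 and 4087 with OP50 + LL12007. That of the germline markers was 1848 and 2056 CPM with OP50, and between 1159 and 1541 CPM in the 4 other libraries, with no marker of either list at 0. The calls depended on the libraries used. Leaving out either LL12007-fed library left 0 calls in both lists with OP50 + LL12007, where 0 of all tested genes were then called lower. With OP50 + LL100933, the calls in both lists were lost without any library other than OP50 replicate 1, and grew in number without OP50 replicate 1. Such fits leave 1 library in a group, so these changes are not read as a result about the markers. The fold changes of all 22 listed genes stayed below 0 in every one of these fits. The part of oocytes, germline or intestine in the vitellogenin values was not tested.

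**Figure D5:**
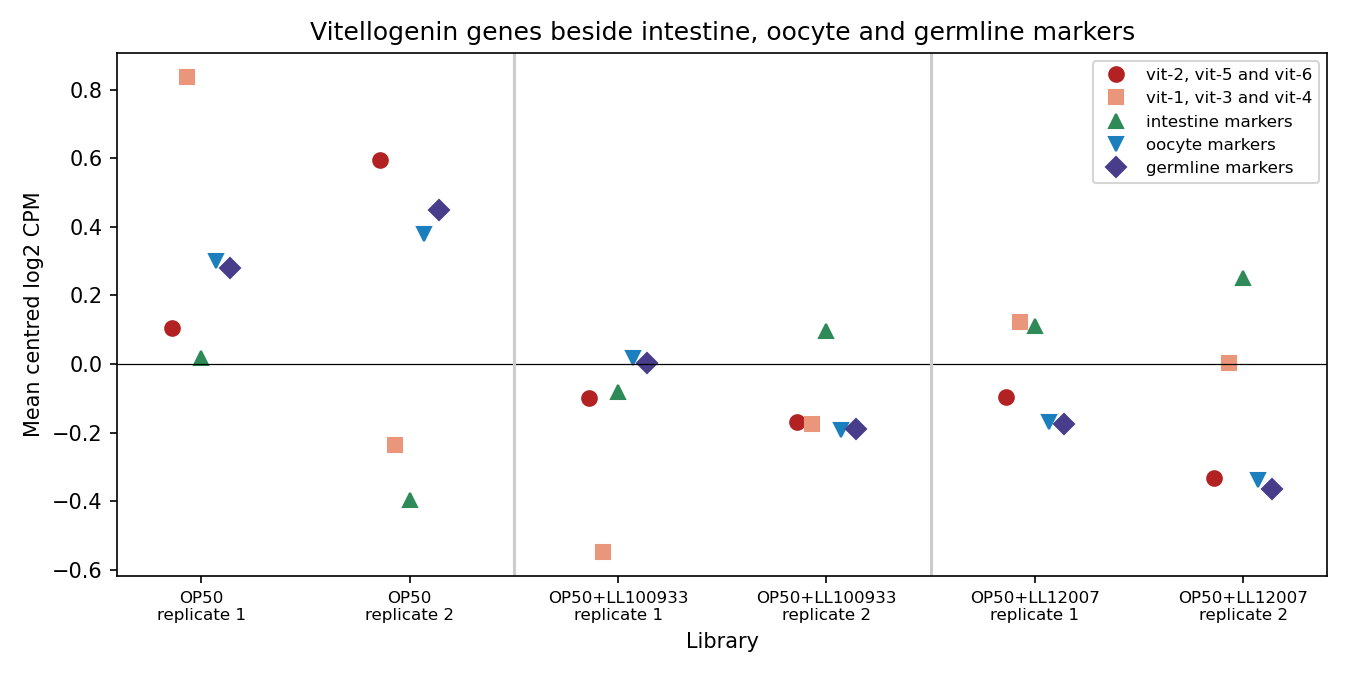
Mean centred log2 CPM per library of *vit-2*, *vit-5* and *vit-6*, of *vit-1*, *vit-3* and *vit-4*, and of the intestine, oocyte and germline markers, where 0 is each gene's own mean over the 6 libraries. In OP50 replicate 2 the first set of vitellogenin genes is at 0.60 and the intestine markers at -0.40, and the oocyte and germline markers are above 0 in both OP50 libraries.

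The same markers describe how the OP50 libraries differed from each other. In OP50 replicate 2, 8 of 12 intestine markers were lower than in replicate 1, with a median difference of -0.45 on the log2 scale, and all 7 muscle markers were lower (median -0.42). Sperm markers were lower for 8 of 8 tested genes (median -1.04), at summed levels of 16.1 and 6.70 CPM. None of the 10 germline markers was lower (median 0.12). These differences accompanied the split of the vitellogenin genes, and their part in it was not tested. Against OP50, edgeR called 1 of 7 muscle markers higher with each diet, and 2 and 4 of 7 neuron markers, LL100933 first, while 4.38% and 8.76% of all tested genes were called higher. All 7 genes of each list were above 0 with both diets, with medians of 0.58 and 0.47 for muscle and 0.64 and 0.71 for neurons. DESeq2 called 6 and 5 muscle markers and 5 and 5 neuron markers higher, against 8.43% and 11.8% of the genes it tested. Of 6 tested early embryo markers 2 were called lower with OP50 + LL12007, where 7.71% of all tested genes were. With OP50 + LL100933 0 were called by edgeR or DESeq2. An unadjusted p under 0.05 was found there for 2 of the 6, and for 4686 of all 14899 tested genes. Of 8 tested sperm markers edgeR and DESeq2 called 0 with either diet. With OP50 + LL12007, 2 of the 8 had an unadjusted p under 0.05, where 5502 of all 14899 tested genes had one. Of 5 tested hypodermis markers 1 was called higher and 1 lower with OP50 + LL12007.

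The genes whose pattern over the 6 libraries was most like the mean of the vitellogenin genes were sought among 8452 tested genes with a mean of at least 10 CPM. *exos-2*, *Y59A8B.12*, *brc-2*, *W03F9.1* and *mis-12* were the nearest by Euclidean distance of centred log2 CPM, at distances of 0.10 to 0.19. *exos-2*, the nearest, was at 0.43 and 0.17 in the OP50 libraries, -0.24 and -0.18 with OP50 + LL100933, and -0.02 and -0.15 with OP50 + LL12007. The mean profile averages over both subsets of the family, so these genes need not follow any single member.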

How the data were processed

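The deposited tables held counts per gene and library. Per the labels and the paper, the authors selected poly(A) RNA and prepared stranded libraries. They used Trim Galore, Trimmomatic and cutadapt for trimming, STAR for alignment to ce11 (WBcel235) and featureCounts for counting. The submitters' processing notes give versions 0.6.5, 0.39, 2.7, 2.7.2b and 1.6.4 in that order. The paper gives a different version for each of these tools. How strand and reads with several matches were handled is not given in the sources used here. Differential expression was tested by the authors with DESeq.

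Counts were scaled with TMM factors (0.970 to 1.04), filtered with filterByExpr and fitted with edgeR 4.0.16 (R 4.3.3, glmQLFit, robust) on all 6 libraries with a term for the diet, leaving 3 residual degrees of freedom. The Benjamini-Hochberg adjustment was over all 14899 tested genes, with a threshold of 0.05. Standard errors equal the absolute log2 fold change over the root of its quasi-likelihood F statistic. Normalized counts are scaled to the mean effective library size, log2 CPM used a prior count of 2, and levels per kilobase used the exon length in the tables. DESeq2 1.42.0 and limma 3.58.1 (voom) were alternatives, with other scalings, filters, a fit of each pair of groups, a replicate block and leaving out each library.

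The members and gene lists were chosen with earlier results of these data known, and the lists were written from general knowledge of the worm. Named genes are all 6 members, and of the lists for yolk uptake, assembly, regulation, intestine, oocytes and germline up to 4 called genes by size of change, or up to 2 of highest mean CPM where none was called, with the 5 genes of most similar pattern. Markers of other tissues are given by counts. The alternatives were applied to the list genes after seeing the data. Replicate numbers were not taken to pair libraries in the main fit. Deviations of same-numbered libraries had correlations of -0.00, -0.06 and 0.20, which cannot exclude that libraries of some groups shared a batch. No library pair agreed within sampling noise. Promoter and protein sequences were not analysed here.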

Additional observations from a re-analysis of the deposited data

How the results depend on the processing

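Over 18 alternatives and 3 comparisons, 277 of 324 log2 fold changes of the vitellogenin genes kept their direction and their side of the threshold, 35 kept their direction and became significant, and 12 changed sign. The number of vitellogenin genes called was 0 with all 6 libraries in edgeR. With OP50 + LL100933 it was 2 under DESeq2 on all libraries or on the pair of groups, and 4 without a filter. Of all genes tested in those fits, 4.94%, 1.09% and 3.22% were called lower. With OP50 + LL12007 it was 4 under DESeq2 on all libraries and without a filter, and 3 under DESeq2 on the pair. There 10.1%, 7.51% and 9.31% of all genes tested were called lower. It was 1 (*vit-5*) with RLE factors, library totals only or limma-voom, where 8.09%, 6.6% and 7.22% were. Between the strains it was 1 under DESeq2 on the pair (*vit-4*) and 1 without a filter (*vit-1*), both higher, as were 2.11% and 1.57% of all genes tested. When 1 library was left out, the median of the 6 genes ran from -0.66 to -0.50 with OP50 + LL100933 and from -0.57 to -0.38 with OP50 + LL12007. Which genes were called varied among these fits, each of which leaves 1 library in a group. Library factors of the upper-quartile kind shifted the median of all genes to 0.08 with OP50 + LL100933 and turned the split of calls from 334 lower and 652 higher to 142 and 839. The cause of these changes was not tested.

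The fold change of *vit-1* ran from -1.57 to 0.017 with OP50 + LL100933 and from -0.91 to 0.69 with OP50 + LL12007 when 1 library was left out, and that of *vit-4* with OP50 + LL12007 from -0.65 to 0.43. Between the strains, *vit-6* was at -0.00018 with RLE factors, -0.0092 with scaling without the vitellogenin genes, -0.0011 under DESeq2 and -0.0034 under edgeR on the pair, and -0.017 with at least 10 counts in every library, and ran from -0.095 to 0.098 when 1 library was left out, where *vit-5* ran from -0.20 to 0.046. When 1 library was left out, *daf-2* ran from -0.15 to 0.28 with OP50 + LL100933 and from -0.34 to 0.072 with OP50 + LL12007, and *pdi-2* and *cpl-1* with OP50 + LL100933 from -0.24 to 0.15 and from -0.13 to 0.13. *pdi-2* was at 0.024 with upper-quartile factors. *cpl-1* was at -0.0026 and -0.0074 under DESeq2 on all libraries and on the pair, -0.0051 with limma-voom and -0.0027 with the replicate block. With OP50 + LL100933, DESeq2 on all libraries called 8 oocyte and 6 germline markers lower, against 1 and 3 by edgeR. It called 4.94% of all the genes it tested lower. The vitellogenin share with OP50 + LL100933, whose libraries differed very little, moved to 5.52% over tested genes and 5.58% over nuclear genes without ribosomal RNA.

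With the replicate block edgeR called 0 vitellogenin genes in all 3 comparisons, and over all genes it called 69 lower and 271 higher with OP50 + LL100933 and 945 lower and 977 higher with OP50 + LL12007, against 1149 and 1305 without the block. The depth of at least 4904 counts for every vitellogenin gene leaves little counting error, so the spread between 2 libraries per group limits these values. Fits without a library have fewer residual degrees of freedom and assume that the remaining library of a group varies like the others.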
